A study of Mus musculus with 8 samples.

Results

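The respiratory chain genes described here are 110 of the 36255 gene symbols in the count table. They were chosen by symbol: the mitochondrially encoded mt-Nd, mt-Co, mt-Cytb and mt-Atp genes, and the nuclear Nduf, Cox4 to Cox8, Uqcr, Sdha to Sdhd and Atp5 genes. Of 124 symbols that matched, 14 ending in the pseudogene suffix -ps were left out. The set holds 13 mitochondrially encoded and 97 nuclear genes, and 104 of them (all 13 mitochondrial and 91 nuclear) passed the filter on low counts. The 6 that did not pass were Ndufa11b, Ndufs6b, Cox6a2, Cox7b2, Cox8b and Cox6c2. Of the 97 nuclear symbols, 4 without the -ps suffix are annotated as processed pseudogenes: Ndufb4c, Ndufa11b, Ndufs6b and Cox6c2. They were kept as members. Only Ndufb4c of these passed the filter, with 4179 counts over all libraries beside 1169 for Ndufb4.

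The respiratory chain of the inner mitochondrial membrane passes electrons from NADH (complex I) and succinate (complex II) through complex III to oxygen at complex IV, and complex V, the ATP synthase, uses the resulting proton gradient to make ATP. Complexes I, III, IV and V combine proteins encoded in mitochondrial DNA, which are transcribed as long polycistronic RNAs, with proteins encoded in the nucleus and imported, while complex II is wholly nuclear. Mouse ES cells combine glycolysis with respiration, and leave the naive state with a shift in the balance of these pathways.

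Poly(A)-selected RNA was sequenced from 4 groups of mouse cells with 2 libraries each, named by lot: embryoid bodies at day 2 (EBd2, clusters of cells in which ES cells start differentiating) that were knockout (KO) for Skp1a, EBd2 that were fl/fl for Skp1a (floxed), KO ES cells and fl/fl ES cells. Skp1a encodes the adaptor that joins F-box proteins to SCF ubiquitin ligases. No source used here gives the way the deletion was made, the strain or the number of clones. Nothing says that lots are separate cultures, so the p-values cover the spread between these libraries and no more. The tissue field names all KO libraries as stem cells and all fl/fl libraries as embryoid bodies. That conflicts with the titles, which set the groups here.

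Library totals were 7858452 to 10055667 counts in EBd2 and 21545868 to 23343471 counts in ES cells. Skp1a itself had 286 and 289.6 CPM (read counts scaled to library size, with TMM factors) in KO EBd2, against 401 and 389 CPM in fl/fl EBd2. In ES cells it had 369 and 361 CPM in KO, against 420.2 and 430.3 CPM in fl/fl. It was lower in all KO libraries but far from absent, and whether the reads cover the deleted part is not known from a count per gene. Markers were summed to check the labelled stages. The 3 general ES cell markers (Pou5f1, Sox2, Nanog) gave 1193 to 1252 CPM in KO EBd2, 1452 to 1478 CPM in fl/fl EBd2, 1795 to 1848 CPM in KO ES cells and 1909 to 1945 CPM in fl/fl ES cells, so all 4 groups carried them. The 4 formative markers (Fgf5, Otx2, Pou3f1, Dnmt3b) summed to 306 to 321 CPM in KO EBd2, 1668 to 1786 CPM in fl/fl EBd2, 171 to 178 CPM in KO ES cells and 199.8 to 204 CPM in fl/fl ES cells, so fl/fl EBd2 stood apart from KO EBd2. Primitive endoderm (Gata6, Gata4, Sox17, Sox7) and primitive streak (T, Mixl1, Eomes) markers were highest in KO EBd2. The 4 primitive endoderm markers summed to 152 to 156 CPM in KO EBd2, 37.5 to 38.9 CPM in fl/fl EBd2, 16.4 to 18.5 CPM in KO ES cells and 22.95 to 24.2 CPM in fl/fl ES cells. For the 3 primitive streak markers the sums were 145 to 150.4 CPM in KO EBd2, 17.0 to 18.4 CPM in fl/fl EBd2, 14.2 to 16.9 CPM in KO ES cells and 13.9 to 13.9 CPM in fl/fl ES cells. The 7 fibroblast feeder markers (Col1a1, Col1a2, Col3a1, Thy1, Postn, Dcn, Lum) summed to 135 to 152 CPM in KO EBd2, 39.9 to 44.4 CPM in fl/fl EBd2, 522 to 582 CPM in KO ES cells and 475 to 507 CPM in fl/fl ES cells. No gene of these lists was at 0 in both libraries of any group. The 5 naive markers (Klf4, Esrrb, Zfp42, Tbx3, Nr5a2) summed to 572 to 582 CPM in KO EBd2, 459.8 to 504 CPM in fl/fl EBd2, 873 to 874 CPM in KO ES cells and 1140.1 to 1141 CPM in fl/fl ES cells, and all 5 were called lower in KO ES cells. These lists move with genotype in EBd2 and with stage. In ES cells the naive, general, formative and primitive endoderm sums were lower in KO than in fl/fl without overlap. The fibroblast feeder and primitive streak sums were higher in KO ES cells, also without overlap. A sum follows its most abundant genes. Scaled by library totals alone, 1 of the 3 general markers was called higher and 1 lower in KO ES cells. Of the 4 formative markers 1 was then called lower and 0 higher. Of the 5 naive markers 4 were then called lower and 0 higher, and of the 4 primitive endoderm markers 2 lower and 0 higher. Among 6 tested feeder markers 3 were called higher and 0 lower, and 0 of the 3 primitive streak markers were called. The part of these lists in the results below was not tested. In bulk RNA, fewer cells of a type and less RNA per cell cannot be told apart.

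Mitochondrially encoded transcripts were more abundant relative to their nuclear partners in KO cells than in fl/fl cells at both stages, and in EBd2 than in ES cells for both genotypes. The ratio of summed counts of the 13 mitochondrial genes to those of the 97 nuclear genes was 3.55 and 3.76 in KO EBd2, against 3.10 and 2.68 in fl/fl EBd2. In ES cells it was 2.62 and 2.69 in KO, against 1.82 and 1.79 in fl/fl. KO libraries lay above fl/fl libraries of the same stage without overlap, and the lower fl/fl EBd2 library, lot 12, lay just below the higher KO ES library. On the log2 scale the difference between KO and fl/fl was 0.34 in EBd2 and 0.56 in ES cells, and that between EBd2 and ES cells was 0.46 in KO and 0.67 in fl/fl, beside a pooled SD between libraries of 0.0816. By group the SD was 0.058 in KO EBd2, 0.149 in fl/fl EBd2, 0.024 in KO ES cells and 0.021 in fl/fl ES cells. This ratio lies within each library and does not depend on scaling between libraries, and no test was made of it. The 13 genes took 3.15% and 3.24% of all counts in KO EBd2, 2.70% and 2.28% in fl/fl EBd2, 2.43% and 2.42% in KO ES cells, and 1.76% and 1.73% in fl/fl ES cells. The 97 nuclear genes took between 0.851% and 0.967% in all 8 libraries.

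**Figure D1:**
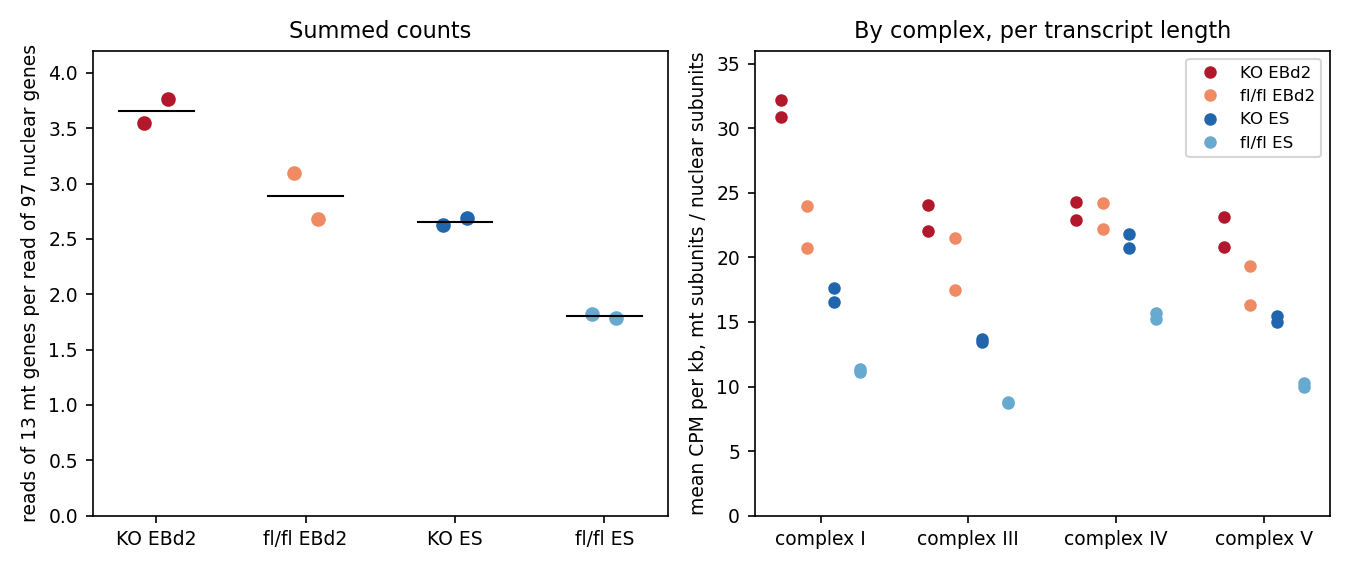
Left, counts of the 13 mitochondrially encoded genes per count of the 97 nuclear genes in each library (points) with group means (lines); right, mean TMM-scaled CPM per kb of mitochondrially encoded subunits over that of nuclear subunits in each library, for complexes I, III, IV and V. KO libraries are above fl/fl libraries of the same stage in every complex except complex IV in EBd2, where they overlap. Counts are as deposited, without those of nuclear copies.

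Levels per kilobase of transcript (GENCODE principal transcript, common subunits only) gave the ratio for each complex. Atp5pb and Atp5md had no principal transcript under these symbols and are missing, which left 15 nuclear subunits in complex V. Of several equally ranked principal transcripts the longest was taken, such as 4371 bp for Ndufb2, 4715 bp for Atp5g1 and 3479 bp for Ndufab1. A longer transcript lowers the nuclear level per kilobase and raises the ratio, so its size depends on this choice. In complex I the 7 mitochondrial subunits averaged 31.5-fold the level of 36 nuclear subunits in KO EBd2, against 22.4-fold in fl/fl EBd2, and 17.1-fold in KO ES cells, against 11.3-fold in fl/fl ES cells. For complex III, where mt-Cytb is the one mitochondrial subunit, the ratio was 23.02 in KO EBd2, 19.5 in fl/fl EBd2, 13.6 in KO ES cells and 8.77 in fl/fl ES cells. In complex V it was 22.0, 17.8, 15.2 and 10.1 in the same order of groups. Complex IV differed in EBd2, with 23.6 in KO and 23.2 in fl/fl, and had 21.3 in KO ES cells and 15.5 in fl/fl ES cells. Libraries of KO and fl/fl EBd2 overlapped in complex IV, and in complexes I, III and V they did not. As log2 differences, KO minus fl/fl in EBd2 was 0.50 for complex I, 0.25 for complex III, 0.026 for complex IV and 0.31 for complex V, and in ES cells the differences ran from 0.46 for complex IV to 0.63 for complex III. These ratios use counts as deposited and were not recomputed with the counts of nuclear copies given below. With those copies the EBd2 difference of mt-Co2, in complex IV, went from 0.41 to 0.074. The sign of the small complex IV difference in EBd2 is therefore not settled.

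In ES cells all 13 mitochondrially encoded genes were called higher in KO than in fl/fl (edgeR quasi-likelihood test, BH-adjusted p under 0.05 over 16542 genes), beside 10.9% of all genes called higher and 23.7% called in either direction. Their median log2 fold change was 0.49, beside 0.0043 for all genes. In EBd2, 8 of 13 were called higher and 0 lower in KO, beside 30.7% of all genes called higher and 62.2% called in either direction, with a median of 0.23. Both libraries of KO lay above both of fl/fl for 13 of 13 mitochondrial genes in ES cells and 8 of 13 in EBd2, where 64.6% and 79.7% of all genes did not overlap in either direction. Leaving out fl/fl EBd2 lot 12, which had the lower mitochondrial levels of its pair for most of these genes, gave 5 higher and 3 lower (mt-Co1, mt-Co3 and mt-Atp8). Scaling by library totals alone kept 0 lower at both stages, and the medians were then 0.45 in EBd2 and 0.56 in ES cells.

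mt-Nd1, a core subunit of the proton-pumping arm of complex I, had 2969.5 and 2965 CPM in KO EBd2, 2726 and 2162 in fl/fl EBd2, 1436 and 1405 in KO ES cells, and 952 and 954 in fl/fl ES cells. The 4 groups did not overlap, in the order KO EBd2, fl/fl EBd2, KO ES and fl/fl ES. Its log2 fold change between KO and fl/fl was 0.28 ± 0.077 (SE), adjusted p = 0.00801 in EBd2, and 0.58 ± 0.077 (SE), adjusted p = 0.000451 in ES cells. mt-Cytb, which carries electrons through complex III, had 2694 and 2744 CPM in KO EBd2, 2428 and 1913 in fl/fl EBd2, 1585 and 1543 in KO ES cells, and 1032 and 1041 in fl/fl ES cells. It kept the same order without overlap, with a difference between KO and fl/fl of 0.33 ± 0.079 (SE), adjusted p = 0.00388 in EBd2, and 0.59 ± 0.079 (SE), adjusted p = 0.000434 in ES cells. mt-Nd2 and mt-Nd4, of the same membrane arm, were called higher in KO at both stages, by 0.26 and 0.23 in EBd2 and by 0.55 and 0.56 in ES cells. mt-Nd5 and mt-Nd6 were also called higher at both stages, by 0.14 and 0.24 in EBd2 and by 0.37 and 0.43 in ES cells. mt-Nd5 and mt-Nd6 overlap by 14 bp on opposite strands, mt-Atp6 and mt-Atp8 by 43 bp and mt-Nd4 and mt-Nd4l by 7 bp on the same strand. Reads there cannot be told apart where strand or overlaps were not resolved.

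mt-Co1, the catalytic core of complex IV, was the most abundant member per kilobase, and behaved otherwise. It had 8589.6 and 8707 CPM in KO EBd2, 9444 and 7731 in fl/fl EBd2, 10194 and 10047 in KO ES cells, and 7967 and 7966 in fl/fl ES cells. KO lay above fl/fl in ES cells, while the EBd2 groups overlapped. Its log2 fold change was 0.35 ± 0.068 (SE), adjusted p = 0.00432 in ES cells, and 0.01 ± 0.069 (SE), adjusted p = 0.905 in EBd2. mt-Co3, also of the complex IV core, had 2896 and 2928 CPM in KO EBd2, 3403 and 2911 in fl/fl EBd2, 2725 and 2671 in KO ES cells, and 2047 and 2078 in fl/fl ES cells. It was higher in KO ES cells, by 0.39 ± 0.057 (SE), adjusted p = 0.000766, and the EBd2 values were -0.12 ± 0.057 (SE), adjusted p = 0.0972. The difference between those effects, KO against fl/fl in EBd2 less that in ES cells, was -0.50 ± 0.08 (SE), adjusted p = 0.000339.

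The rise with stage was uneven along the mitochondrial genome. EBd2 against ES cells, 8 of 13 were called higher and 1 lower in KO (beside 31.7% and 33.1% of all genes, 64.8% in either direction), and 11 higher and 0 lower in fl/fl (beside 28.9% and 30.1%, 59% in either direction). Without overlap, 9 lay above and 3 below in KO, and 11 above and 0 below in fl/fl, where 83% of all genes in KO and 78.9% in fl/fl did not overlap. Among the largest were mt-Nd1, at 1.06 in KO and 1.36 in fl/fl, and mt-Nd4l, at 0.94 in KO and 1.37 in fl/fl. In contrast mt-Nd6 had -0.11 in KO and 0.088 in fl/fl, neither called. mt-Co1 was the member called lower, in KO, at -0.23 ± 0.068 (SE), adjusted p = 0.0125, a call lost with library totals and with DESeq2. It had 0.11 in fl/fl, which was not called. It made up 30.0% of the mitochondrial CPM in KO EBd2 and 32.7% in fl/fl EBd2, against 41.7% in KO ES cells and 43.6% in fl/fl ES cells. For mt-Nd1 the shares were 10.3% in KO EBd2 and 9.30% in fl/fl EBd2, against 5.85% in KO ES cells and 5.21% in fl/fl ES cells. Without mt-Co1 the log2 difference of the summed ratio between EBd2 and ES cells was 0.72 in KO and 0.93 in fl/fl.

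**Figure D2:**
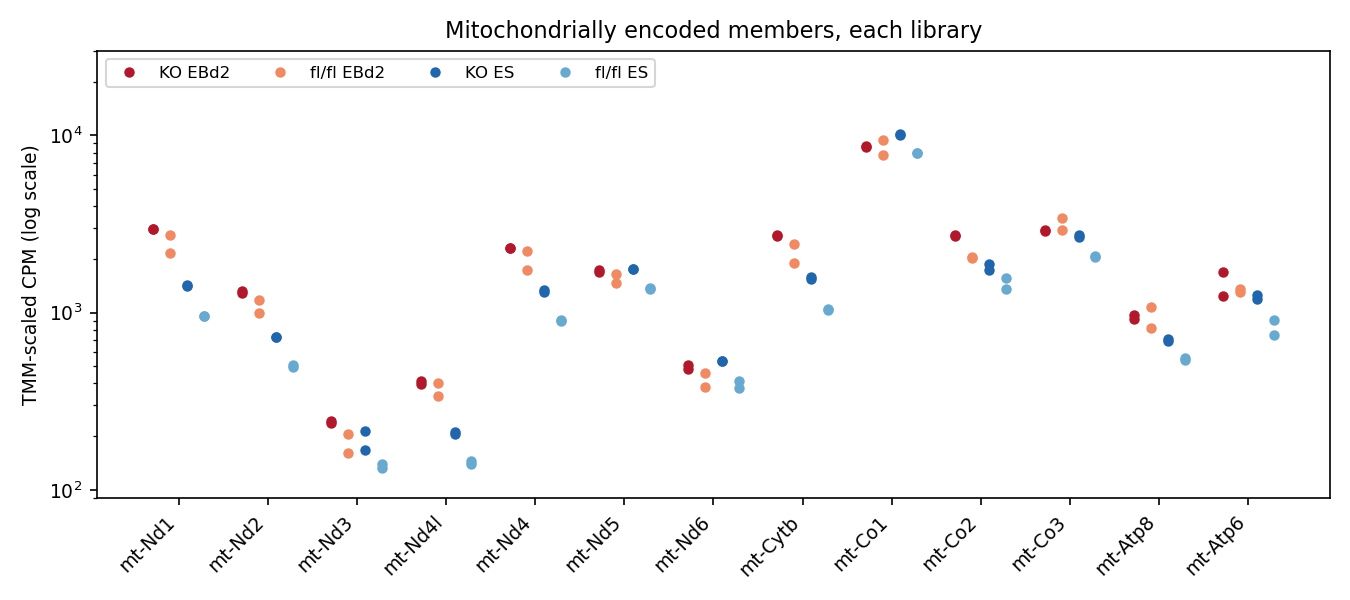
TMM-scaled CPM (log axis) of the 13 mitochondrially encoded genes in each of the 8 libraries, 2 points per group. mt-Nd1, mt-Nd2, mt-Nd4 and mt-Cytb separate the 4 groups, whereas mt-Nd5, mt-Nd6 and mt-Co1 differ less between stages.

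Some of these counts are shared with nuclear copies of mitochondrial DNA. A block on mouse chromosome 1 (GRCm38, minus strand) holds annotated pseudogenes that match mitochondrial genes over the whole annotated length of the pseudogene. Gm10925 at chr1:24613974-24614651 matched mt-Atp6 in 678 of 678 bases, and Gm28661 at chr1:24614885-24615565 matched mt-Co2 in 681 of 681. Gm28439 at chr1:24611535-24612410 matched mt-Nd4 in 876 of 876, and so covers only part of mt-Nd4, which has 1378 bases. Gm28438 at chr1:24612775-24613119 differed from mt-Nd3 (chrM:9459-9806) at 1 of 345 bases. The first 120 bases of mt-Nd3 and of the copy are shown because a read must cover that base to tell them apart (GENCODE vM21 transcripts, 5′ to 3′, the base that differs in capitals, T3C counted from the first base):
mt-Nd3: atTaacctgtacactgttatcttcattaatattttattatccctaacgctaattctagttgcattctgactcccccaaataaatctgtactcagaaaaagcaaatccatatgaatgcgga
Gm28438: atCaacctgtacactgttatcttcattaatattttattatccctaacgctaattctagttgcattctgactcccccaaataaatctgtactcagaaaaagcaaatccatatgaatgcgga

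Gm10925 was given 163.7% as many counts as mt-Atp6 itself over all libraries, Gm28661 74.7% of those of mt-Co2, Gm28438 30.4% of those of mt-Nd3 and Gm28439 9.04% of those of mt-Nd4. Gm28437 of the same block matched mt-Co3 in 783 of 783 bases and had 0.714% of its counts. Gm10222 matched mt-Nd4l in 294 of 294 bases and had 0 counts. The split between gene and copy varied between libraries of 1 group: Gm28438 had 142 and 129.5 CPM in KO EBd2, 229 and 102 in fl/fl EBd2, 54.7 and 1.81 in KO ES cells, and 0.674 and 1.47 in fl/fl ES cells. Gm28661 had 837 and 929 CPM in KO EBd2, 1784 and 959.9 in fl/fl EBd2, 1939 and 1739 in KO ES cells, and 1125 and 1356 in fl/fl ES cells. Both copies thus differed between the libraries of fl/fl EBd2, and Gm28438 also between those of KO ES cells. With the counts of each pseudogene added to the member it shares most sequence with, mt-Co2 had 3588 and 3627 CPM in KO EBd2, 3856 and 2999.6 in fl/fl EBd2, 3679.8 and 3627 in KO ES cells, and 2685 and 2711 in fl/fl ES cells. The EBd2 groups then overlapped. mt-Co2 was called higher in KO EBd2 as deposited, at 0.41 ± 0.059 (SE), adjusted p = 1.00e-04, and was not called with the copies added, at 0.074 ± 0.081 (SE), adjusted p = 0.45. mt-Nd3 likewise had 0.39 ± 0.12 (SE), adjusted p = 0.0131, as deposited, and 0.11 ± 0.081 (SE), adjusted p = 0.239, with its copy. Counts of mitochondrial genes called higher in KO EBd2 were then 6 of 13, and in ES cells 13 of 13. The summed ratio moved little, with log2 differences between KO and fl/fl of 0.31 in EBd2 and 0.56 in ES cells.

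Nuclear members had the same limit where processed pseudogenes exist. Atp5g2, a gene for the c-ring of ATP synthase, had 9.11 and 6.44 CPM in KO EBd2, 8.64 and 9.12 in fl/fl EBd2, 13.3 and 8.39 in KO ES cells, and 12.8 and 9.33 in fl/fl ES cells. These are few reads, and the groups overlap at both stages. Its pseudogene Gm10175 had 103 and 95.5 CPM in KO EBd2, 172 and 163 in fl/fl EBd2, 170.2 and 169 in KO ES cells, and 175 and 191 in fl/fl ES cells, or 1592% of the counts of Atp5g2 over all libraries. With pseudogene counts added, the log2 fold change of Atp5g2 between KO and fl/fl in EBd2 was -0.70 ± 0.059 (SE), adjusted p = 8.23e-07, against -0.20 ± 0.30 (SE), adjusted p = 0.575, as deposited. Reads assigned to these genes do not show which locus was transcribed. Ndufab1, the mitochondrial acyl carrier protein, and Atp5l, a small Fo subunit, were called in EBd2 as deposited, at -0.17 and 0.29, and not with the copies, at -0.0058 (adjusted p = 0.929) and 0.15 (adjusted p = 0.18).

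**Figure D3:**
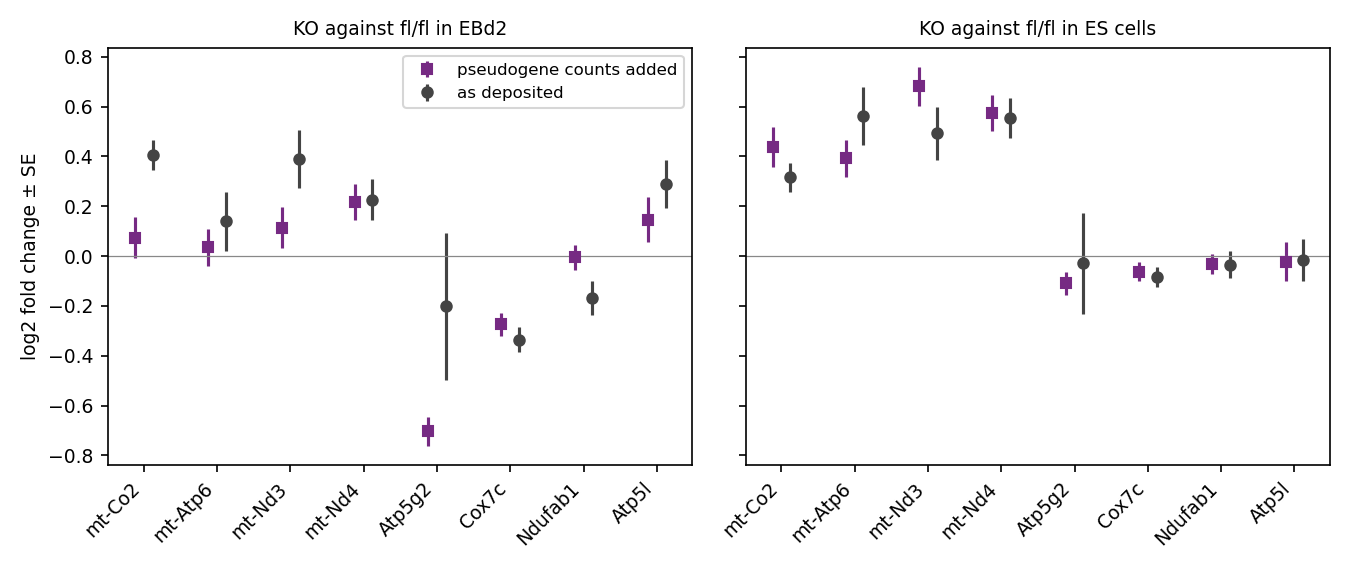
Log2 fold change ± SE of KO against fl/fl in EBd2 (left) and ES cells (right) for 8 members, with pseudogene counts added (squares) and as deposited (circles). In EBd2 mt-Co2, mt-Nd3 and Ndufab1 move to near 0 and Atp5g2 moves to -0.70, while in ES cells the mitochondrial genes stay above 0.

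The nuclear genes went mostly the other way. In EBd2, 39 of 91 were called lower and 14 higher in KO, beside 31.5% and 30.7% of all genes, with a median log2 fold change of -0.14. In ES cells 24 were called lower and 1 higher in KO, beside 12.8% and 10.9% of all genes, with a median of -0.08. Scaling by library totals alone moved the median of all genes by 0.227 in EBd2 and 0.0706 in ES cells, and the nuclear median was then 0.09 in EBd2, with 12 lower and 37 higher, so the direction of the nuclear set in EBd2 rests on the scaling. Under that scaling 9 were lower and 2 higher in ES cells, with a median of -0.01. The 24 lower calls in ES cells also became 9 with lots as a block and 12 with libraries thinned to equal depth. They became 13 without KO ES lot 1, 10 without KO ES lot 12, 11 without fl/fl ES lot 1 and 8 without fl/fl ES lot 2. Both libraries of KO EBd2 were below both of fl/fl EBd2 for 48 of 91 nuclear genes and above for 16, beside 39.6% and 40.2% of all genes. In ES cells KO was below for 53 and above for 9, beside 32.3% of all genes in each direction.

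**Figure D4:**
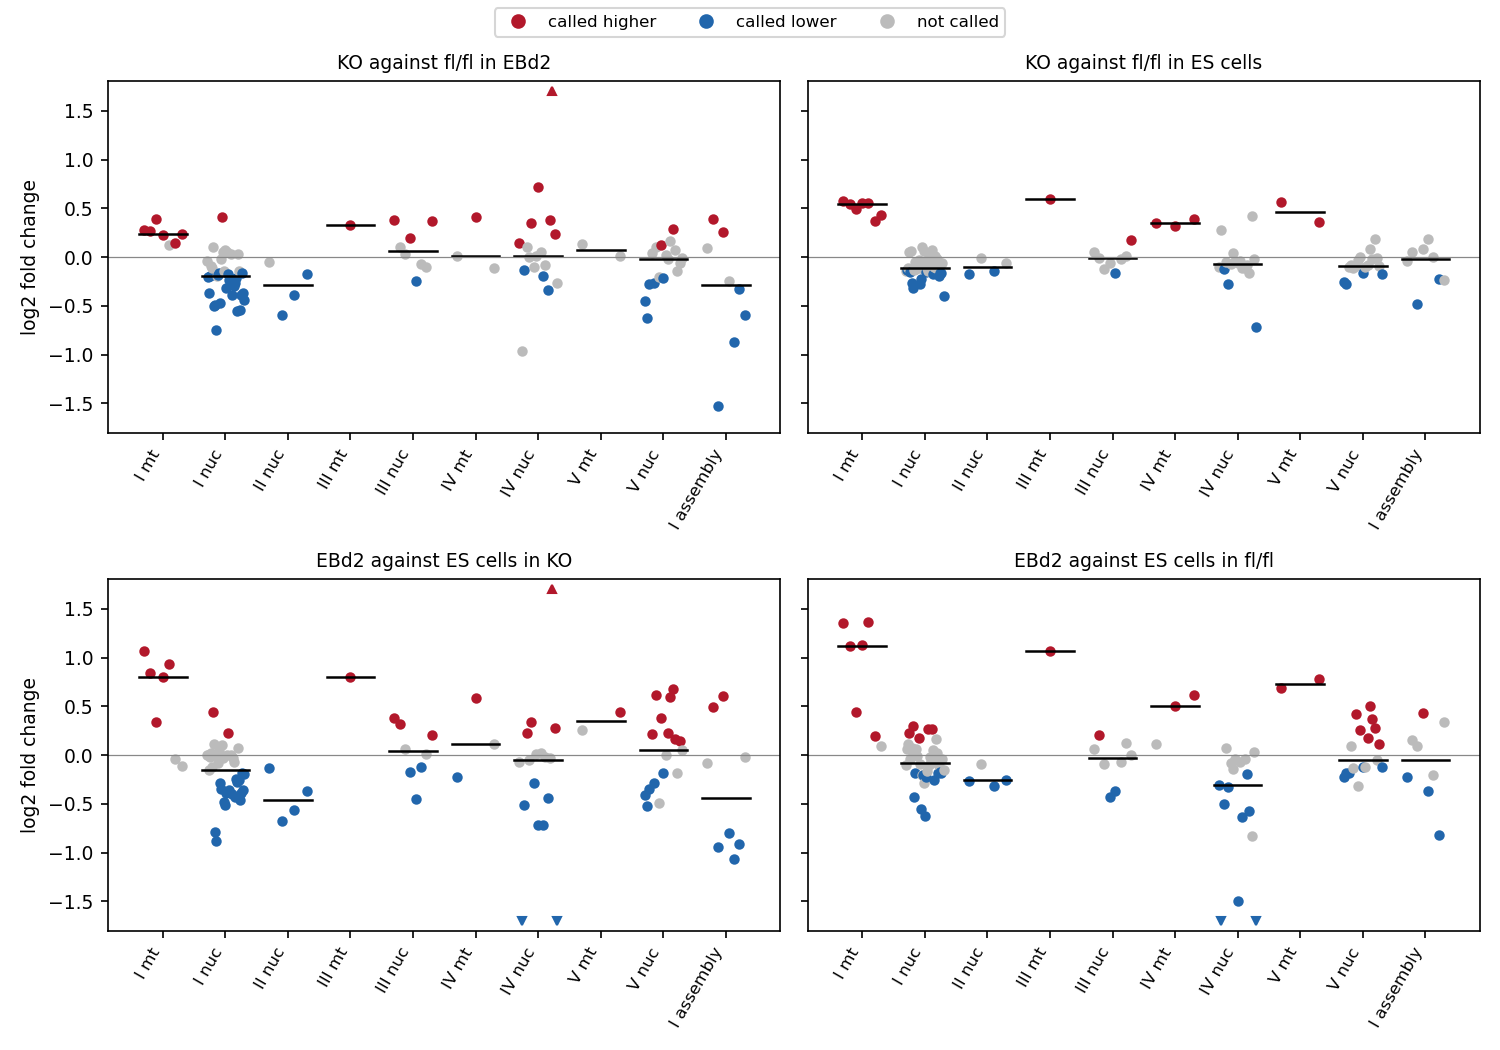
Log2 fold change of each tested member (points) and median (lines) by complex and genome (mt, mitochondrially encoded; nuc, nuclear) in 4 comparisons; values beyond 1.7 are drawn at 1.7 as triangles (Cox8c, Cox4i2 and Ndufa4l2). In ES cells every mitochondrial gene is higher in KO and the nuclear medians lie between -0.11 and -0.01.

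Complex I held 23 of the 39 nuclear genes called lower in KO EBd2. There, 23 of its 37 tested nuclear genes were lower and 1 higher with TMM factors, beside 31.5% and 30.7% of all genes. Scaled by library totals alone, 6 were lower and 7 higher, so the direction of this group rests on the scaling. The 37 include the pseudogene Ndufb4c, not called with TMM factors (0.067) and called higher with library totals (0.29). In KO ES cells 12 of the 37 were lower and 0 higher, beside 12.8% and 10.9% of all genes, against 2 and 0 with library totals. All 7 nuclear core subunits, which carry the NADH site and the iron-sulfur clusters, were lower in KO EBd2 and 4 of 7 in KO ES cells, against 1 and 0 with library totals, where their medians were -0.071 and -0.094. Ndufs7, which holds the last iron-sulfur cluster before ubiquinone, had 29.8 and 27.4 CPM in KO EBd2, against 42.6 and 40.8 CPM in fl/fl EBd2. The groups did not overlap, at -0.55 ± 0.072 (SE), adjusted p = 4.58e-05. In ES cells it had 40.04 and 38.6 CPM in KO ES cells, against 44.6 and 45.4 CPM in fl/fl ES cells, at -0.19 ± 0.054 (SE), adjusted p = 0.023. Ndufa7, an accessory subunit, had the largest fall in the complex, with 72.1 and 66.4 CPM in KO EBd2, against 121 and 111 CPM in fl/fl EBd2. That was a log2 fold change of -0.74 ± 0.061 (SE), adjusted p = 8.03e-07, whereas ES cells gave -0.047 ± 0.045 (SE), adjusted p = 0.496. Ndufs4, an accessory subunit whose loss causes Leigh-like disease in mice, was lower in KO EBd2 at -0.55 ± 0.073 (SE), adjusted p = 4.93e-05. Ndufb2 was the one called higher, with 28.1 and 26.8 CPM in KO EBd2, against 23.1 and 18.5 CPM in fl/fl EBd2, at 0.41 ± 0.11 (SE), adjusted p = 0.00521. In ES cells the largest falls were in the accessory subunits Ndufv3, Ndufa5 and Ndufb10, at -0.40, -0.32 and -0.28.

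Of the 8 Ndufaf assembly factors of complex I, 4 were lower and 2 higher in KO EBd2, beside 31.5% and 30.7% of all genes. With library totals 2 were lower and 3 higher. Ndufaf3, which acts early in assembly, had 3.43 and 4.65 CPM in KO EBd2, 11.7 and 11.7 in fl/fl EBd2, 7.94 and 7.74 in KO ES cells, and 10.2 and 11.8 in fl/fl ES cells. KO EBd2 was lowest without overlap, at -1.52 ± 0.17 (SE), adjusted p = 1.05e-05, and in ES cells the difference was -0.48 ± 0.12 (SE), adjusted p = 0.0113. Ndufaf6 was lower in KO EBd2 at -0.87 ± 0.14 (SE), adjusted p = 0.000178, and had -0.00079 ± 0.093 (SE), adjusted p = 0.998, in ES cells. Ndufaf8 fell by 0.60, while Ndufaf2 and Ndufaf4 were higher by 0.39 and 0.26.

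In complex II, the succinate dehydrogenase, Sdhb, Sdhc and Sdhd were lower in KO EBd2 and Sdha was not called, beside 31.5% of all genes called lower. Sdhb, the iron-sulfur subunit, had 47.5 and 48.9 CPM in KO EBd2, 69.2 and 76.4 in fl/fl EBd2, 77.0 and 76.9 in KO ES cells, and 76.8 and 78.6 in fl/fl ES cells. KO EBd2 stood below the other 3 groups, and the difference from fl/fl was -0.60 ± 0.059 (SE), adjusted p = 4.08e-06, in EBd2 and -0.013 ± 0.043 (SE), adjusted p = 0.86, in ES cells. Sdha, the flavoprotein, had 271 and 268 CPM in KO EBd2, against 283 and 275 CPM in fl/fl EBd2, at -0.051 ± 0.035 (SE), adjusted p = 0.225, and was lower in KO ES cells at -0.18 ± 0.031 (SE), adjusted p = 0.00223. Under scaling by library totals Sdha was 0.18 and Sdhd 0.052 in EBd2. Sdhc and Sdhd, the membrane anchors, were lower in KO EBd2, at -0.39 and -0.18 on the log2 scale.

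Complex III was mixed in EBd2, with 3 of 8 nuclear subunits higher and 1 lower in KO, beside 30.7% and 31.5% of all genes, against 6 and 0 with library totals. Uqcr10, a small subunit, had 71.3 and 63.9 CPM in KO EBd2, against 52.6 and 51.5 CPM in fl/fl EBd2, without overlap, at 0.38 ± 0.074 (SE), adjusted p = 0.000945. Uqcrq, which binds beside cytochrome b, was higher at 0.37 ± 0.071 (SE), adjusted p = 0.000709, and was the one nuclear member called higher in KO ES cells, at 0.17 ± 0.056 (SE), adjusted p = 0.0461. Uqcrc1 and Uqcrc2, the core proteins, went apart in KO EBd2, at 0.20 and -0.25, both called. In ES cells Uqcrc2 was also lower, at -0.17, and Uqcrc1 was not called, at -0.062.

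Complex IV had 6 of 17 tested nuclear genes higher and 3 lower in KO EBd2, against 10 and 0 with library totals, and the share called higher was near the 30.7% of all genes. Cox6b1, which links the monomers of the enzyme, had 109.7 and 101 CPM in KO EBd2, 85.7 and 79.4 in fl/fl EBd2, 87.1 and 78.8 in KO ES cells, and 85.9 and 88.3 in fl/fl ES cells. KO EBd2 was highest, above all libraries of the other 3 groups, at 0.35 ± 0.067 (SE), adjusted p = 0.000754, between KO and fl/fl EBd2. Cox8a had 138 and 115 CPM in KO EBd2, 99.6 and 94.2 in fl/fl EBd2, 129 and 128 in KO ES cells, and 143 and 145 in fl/fl ES cells. Here fl/fl EBd2 was lowest, at 0.38 ± 0.074 (SE), adjusted p = 0.00079, and in ES cells the difference was -0.17 ± 0.057 (SE), adjusted p = 0.0581. Ndufa4, now counted to complex IV, and Cox4i1 were higher in KO EBd2 by 0.24 and 0.14. Cox7c fell by 0.34 and Cox5a by 0.14 in KO EBd2. With library totals Cox5a, Cox7a2l and Cox6a1 were 0.091, 0.033 and 0.22 in EBd2. In ES cells Cox5a, Cox6a1 and Ndufa4l2 were lower in KO, at -0.12, -0.28 and -0.71.

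Several tissue isoforms and paralogs of complex IV differed by stage. Ndufa4l2, a paralog of Ndufa4 known as a hypoxia target, had 5.49 and 3.40 CPM in KO EBd2, 4.32 and 6.12 in fl/fl EBd2, 31.6 and 30.5 in KO ES cells, and 49.99 and 51.9 in fl/fl ES cells. Both EBd2 groups lay far below both ES groups. EBd2 against ES cells, its log2 fold change was -2.82 ± 0.15 (SE), adjusted p = 2.51e-08, in KO, and -3.27 ± 0.15 (SE), adjusted p = 7.61e-09, in fl/fl. Cox4i2, the paralog of Cox4i1 tied to low oxygen, was rare, with 0.196 and 0.179 CPM in KO EBd2, 0.135 and 0.577 in fl/fl EBd2, 1.83 and 1.85 in KO ES cells, and 1.53 and 1.51 in fl/fl ES cells, at -3.24 in KO and -2.01 in fl/fl between stages. Cox7a1, the heart and muscle isoform, had 6.76 and 4.203 CPM in KO EBd2, 2.70 and 3.81 in fl/fl EBd2, 9.45 and 8.43 in KO ES cells, and 9.70 and 8.94 in fl/fl ES cells, and was lower in EBd2 at -0.72 in KO and -1.501 in fl/fl. In EBd2 it was higher in KO at 0.72 ± 0.27 (SE), adjusted p = 0.0335. Cox7a2l, which takes part in supercomplexes of III and IV, was lower in EBd2, at -0.72 in KO and -0.64 in fl/fl. Summed CPM of 6 muscle markers (Ckm, Myh7, Myh6, Actc1, Tnnt2, Myog) was 8.05 to 8.23 CPM in KO EBd2, 4.32 to 5.65 CPM in fl/fl EBd2, 8.21 to 9.04 CPM in KO ES cells and 4.27 to 4.69 CPM in fl/fl ES cells. The summed fibroblast feeder markers given above were also lower in EBd2, and their part in the isoforms' levels was not tested. Cox8c, a testis isoform, had 15 counts in the KO EBd2 libraries together and 1 in the fl/fl EBd2 libraries, a ratio of 11.3 with an exact 95% counting interval of 1.73 to 475. Cox6b2, listed as a testis isoform in mice, had 44.2 and 37.4 CPM in KO EBd2, 47.4 and 40.4 in fl/fl EBd2, 50.4 and 48.7 in KO ES cells, and 46.2 and 50.4 in fl/fl ES cells, with overlap between KO and fl/fl at both stages.

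**Figure D5:**
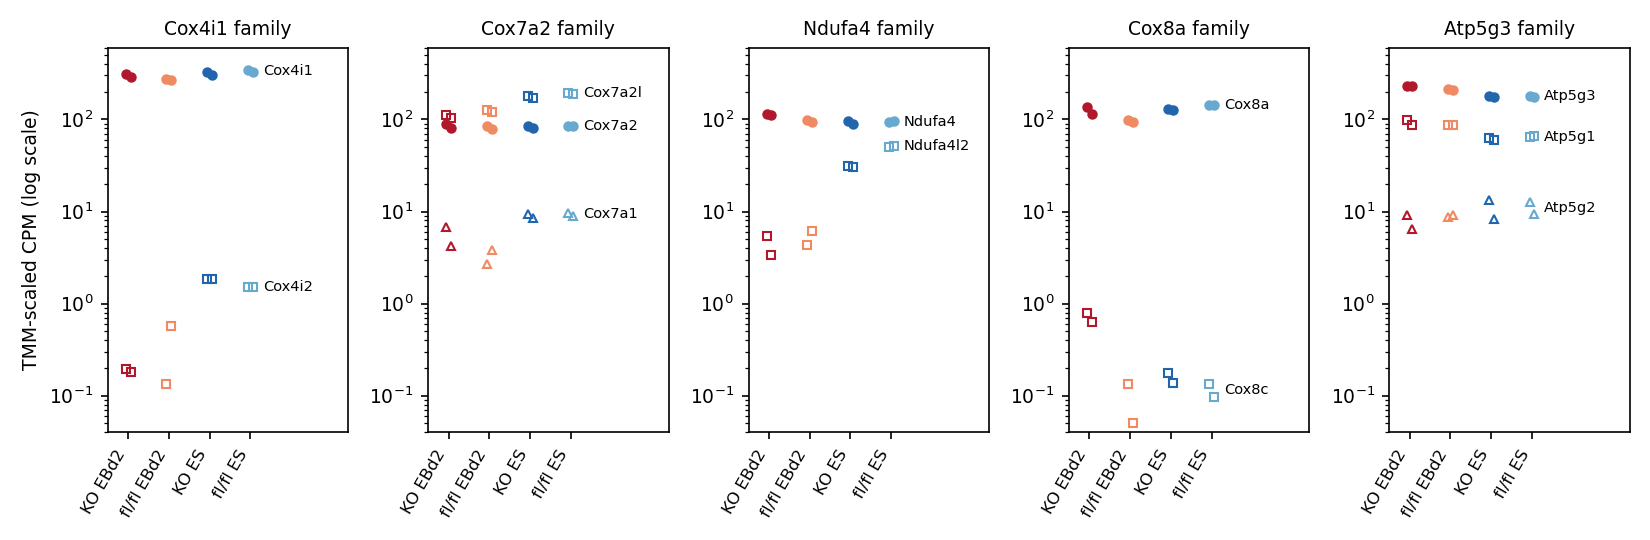
TMM-scaled CPM (log axis, values of 0 drawn at 0.05) per library for 5 isoform families, with the first named gene of each as filled circles and the others as open symbols. Ndufa4l2, Cox4i2 and Cox7a1 are lower in both EBd2 groups, while Cox4i1, Cox7a2 and Ndufa4 differ less between stages.

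In complex V, 5 of 17 tested nuclear genes were lower and 2 higher in KO EBd2, beside 31.5% and 30.7% of all genes. With library totals 2 were lower and 10 higher. Atp5b, the catalytic beta subunit and the most abundant nuclear member, had 1032 and 1006 CPM in KO EBd2, 1574 and 1569 in fl/fl EBd2, 1475 and 1463 in KO ES cells, and 1755 and 1806 in fl/fl ES cells. KO was lower than fl/fl without overlap at both stages, at -0.62 ± 0.033 (SE), adjusted p = 2.45e-08, in EBd2 and -0.28 ± 0.032 (SE), adjusted p = 0.000184, in ES cells. Atp5a1, the alpha subunit, had 847 and 825 CPM in KO EBd2, 1145 and 1139 in fl/fl EBd2, 1108 and 1118 in KO ES cells, and 1342 and 1320.1 in fl/fl ES cells. It too was lower in KO at both stages, at -0.45 in EBd2 and -0.26 in ES cells. Of the 5 F1 subunits 4 were lower in KO EBd2 (Atp5d had 0.041, not called), against 2 lower and 1 higher with library totals. Of the 5 small Fo subunits, 0 were lower and 1 higher (Atp5l) in KO EBd2, against 0 and 4 with library totals, and the call of Atp5l was lost with its pseudogene counts added, as given above. The difference between these subunit groups was not tested. Atp5g3, the most abundant gene for the c-ring, was higher in KO EBd2 by 0.12. EBd2 against ES cells, the c-ring genes Atp5g1 and Atp5g3 were higher by 0.61 and 0.38 in KO and by 0.42 and 0.26 in fl/fl, and Atp5l and Atp5k by 0.67 and 0.59 in KO and by 0.37 and 0.50 in fl/fl. Over the same step Atp5b, Atp5a1 and Atp5c1 fell by 0.53, 0.41 and 0.35 in KO and by 0.18, 0.22 and 0.18 in fl/fl.

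Between stages, 41 of 91 nuclear genes were lower and 19 higher in KO (beside 33.1% and 31.7% of all genes), and 32 lower and 14 higher in fl/fl (beside 30.1% and 28.9%), with medians of -0.08 and -0.10, and in KO 27 were lower and 30 higher with library totals, with a median of 0.07. Both libraries of EBd2 lay below both of ES cells for 45 and above for 22 in KO, beside 41.8% and 41.2% of all genes, and for 49 and 24 in fl/fl, beside 40.5% and 38.4%. Ndufa6 and Ndufa7 fell by 0.79 and 0.88 in KO, and by 0.43 and 0.19 in fl/fl. All 4 genes of complex II were lower in KO EBd2 than in KO ES cells, against 3 with library totals, where Sdha was 0.010. In fl/fl 3 of 4 were lower, with Sdhb at -0.67 in KO and -0.089 in fl/fl.

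The effect of genotype itself differed between stages for 38 members (test of the interaction, beside 48% of all genes called in either direction, 22.4% higher and 25.7% lower). Of the 13 mitochondrial genes, 8 had a smaller KO effect in EBd2 than in ES cells and 0 a larger one, with a median difference of -0.30, against 2 and 1 with library totals, with a median of -0.14. Among nuclear genes 19 were called with a lower and 11 with a higher KO effect in EBd2, against 6 and 32 with library totals. With TMM factors the furthest below among those called were Ndufaf3, Ndufaf6, Ndufa7 and Sdhb, at -1.04, -0.87, -0.70 and -0.58. The furthest above among those called were Cox8a and Cox6b1, at 0.55 and 0.42.

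Calls were also counted by transcript length. Nuclear members with a principal transcript and at least 5 CPM in a group were split at their median principal transcript length of 870 bp. In KO EBd2, 27 of 43 longer genes were lower and 4 higher, against 12 lower and 9 higher of 43 shorter genes. Over all genes 31.5% were lower and 30.7% higher. The medians were -0.21 for longer and -0.0046 for shorter genes. The split was made with TMM factors only, and the direction of nuclear calls in EBd2 rests on the scaling, as given above. Among other tested genes split at the same length, the medians were 0.024 for 10812 longer and 0.027 for 478 shorter genes. The cut at 5 CPM was not made for these other genes. Spearman's rho between length and log2 fold change was -0.28 across 86 genes, which share the same libraries.

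Promoter windows from RefSeq (GRCm38.p6, 250 bases before to 50 after the start) were matched for 76 nuclear members and searched on both strands. CCGGAAG, a core bound by ETS factors such as GABP, was in 23.7% of members' windows and 8.86% of all 32851 windows. The palindromic NRF1 motif was in 9.21% and 0.971%, and AAGATGGC, bound by YY1, was in 13.2% and 2.75%. By call in KO EBd2, CCGGAAG was in 8 of 33 lower, 3 of 11 higher and 7 of 30 uncalled members, the NRF1 motif in 1, 2 and 4, and AAGATGGC in 6, 0 and 4. Windows of a gene that was lower (Sdhb, chr4:140961021-140961320, plus strand), another that was lower (Ndufs7, chr10:80249199-80249498, plus strand) and one that was higher (Cox8a, chr19:7217567-7217866, minus strand) are shown 5′ to 3′ with CCGGAAG, its reverse complement or AAGATGGC in capitals:
Sdhb: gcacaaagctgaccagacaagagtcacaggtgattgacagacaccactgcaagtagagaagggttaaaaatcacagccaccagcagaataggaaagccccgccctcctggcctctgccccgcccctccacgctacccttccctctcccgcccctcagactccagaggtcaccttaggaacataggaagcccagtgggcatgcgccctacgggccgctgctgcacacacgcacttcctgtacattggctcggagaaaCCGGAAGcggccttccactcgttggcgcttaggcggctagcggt
Ndufs7: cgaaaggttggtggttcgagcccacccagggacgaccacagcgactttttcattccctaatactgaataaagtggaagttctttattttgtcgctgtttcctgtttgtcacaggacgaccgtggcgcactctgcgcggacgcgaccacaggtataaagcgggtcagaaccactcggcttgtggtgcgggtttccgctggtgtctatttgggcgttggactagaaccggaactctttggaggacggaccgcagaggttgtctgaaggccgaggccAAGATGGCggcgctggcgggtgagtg
Cox8a: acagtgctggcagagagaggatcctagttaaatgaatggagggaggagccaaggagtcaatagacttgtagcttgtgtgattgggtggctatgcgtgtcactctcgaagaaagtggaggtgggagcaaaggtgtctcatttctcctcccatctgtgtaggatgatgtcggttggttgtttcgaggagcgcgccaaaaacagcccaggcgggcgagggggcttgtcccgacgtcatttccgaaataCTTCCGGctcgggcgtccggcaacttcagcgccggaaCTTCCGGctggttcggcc

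Other genes of mitochondrial function, from fixed lists, had more lower than higher calls in KO EBd2 with TMM factors, and several lists turned with library totals. Over all genes 31.5% were lower and 30.7% higher in EBd2, and 12.8% and 10.9% in ES cells. Of 78 mitochondrial ribosomal protein genes 40 were lower and 7 higher in KO EBd2, against 18 and 23 with library totals, and in ES cells 6 were lower and 2 higher, against 3 and 8. Of 18 tricarboxylic acid cycle genes 10 were lower and 2 higher in EBd2 (Dlat -0.65, Dlst -0.54), against 5 and 7 with library totals. In ES cells 9 of the 18 were lower and 0 higher, against 5 and 0 with library totals. Of 32 genes that maintain, transcribe or handle mitochondrial nucleic acids, 18 were lower and 4 higher in EBd2, against 7 and 10 with library totals. Lrpprc, which stabilises mitochondrial mRNAs, was lower at -0.84 ± 0.036 (SE), adjusted p = 4.98e-09, Grsf1, an RNA-binding protein of mitochondrial RNA granules, was higher at 1.698 ± 0.04 (SE), adjusted p = 9.24e-11, and Tfb1m, a methyltransferase of mitochondrial rRNA, was lower at -0.97. In ES cells Polrmt, the mitochondrial RNA polymerase, was lower at -0.33 and Fastkd5 higher at 0.36. Of 23 genes for outer membrane, import and carrier proteins 16 were lower and 2 higher in EBd2, against 13 and 7 with library totals, with Tomm20 and Slc25a5 at -0.83 and -0.83. Of 11 nuclear regulators of respiratory genes 7 were lower and 3 higher in EBd2, against 5 and 3 with library totals, with Gabpb1 and Pprc1 at -0.98 and -0.93. In ES cells 6 of the 11 were lower and 0 higher, against 5 and 1 with library totals, with Nrf1 at -0.40. Of 42 other assembly factors 12 were lower and 10 higher in EBd2, against 7 and 16 with library totals, both TMM shares below those of all genes. Of 19 other electron carriers and entry points 8 were lower and 3 higher, against 4 and 8, and of 9 mitophagy and uncoupling genes 5 and 2, against 1 and 3, with Bnip3 at -1.72 in EBd2 and -0.54 in ES cells.

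Among 10370 genes with at least 5 CPM in every group, the levels most like the mean log2 CPM of the 13 mitochondrial genes over the 8 libraries were those of 2700081O15Rik, Tmem167, Metap1d, Eml3 and Taf6l, with Pearson's r of 0.991, 0.989, 0.985, 0.985 and 0.984. For 86 nuclear members r ran from -0.968 to 0.914, with a median of -0.594. The libraries share 4 groups, so these values describe the group pattern.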

How the data were processed

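The table holds whole-number counts of reads per gene symbol for 8 poly(A)-selected libraries, as deposited by the authors and not normalized. The submitters' processing notes name Trim Galore 0.6.7, GRCm38 and mm10. The aligner, counter, strand setting and handling of multiply matching reads were not given in the sources used here. Totals were 7858452 to 23343471 counts per library, and intervals cover counting error only.

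Members and gene lists were chosen with earlier results of these data known. Counts were fitted in R 4.3.3 with edgeR 4.0.16 (filterByExpr, TMM, 4 group means over 8 libraries, glmQLFit and glmQLFTest, two-sided, 5 contrasts, Benjamini-Hochberg over 16542 genes, threshold 0.05). Standard errors are the size of the log2 fold change over the square root of F. The common coefficient of variation was 3.40%. On simulated data for KO against fl/fl in EBd2 over 16542 genes, 52.2% of 67 genes changed 1.25-fold were recovered. At 1.5-fold 88.1% of 67 and at 2-fold 100% of 66 were recovered, and 5.9% of calls were false. The changed genes had ample counts and went up or down in equal numbers, and libraries were drawn with the fitted TMM sizes. The real comparison called 62.2% of genes, so these rates need not hold for it.

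Named are all mitochondrial members, complex II, the isoform families, and per comparison and complex up to 3 called nuclear genes in each direction with the largest change and at least 5 CPM, and in other lists up to 4 called genes with the smallest p. Other members were named after their values were seen, and the single result of 1 member is not reported here. Pseudogenes were paired with members by at least 50 shared 31-base words of GENCODE vM21 transcripts. Pseudogenes that are themselves members, such as Ndufb4c, were not paired, so their counts were not added to another member. DESeq2 1.42.0, other scalings and filters, thinning, lots as a block, and leaving out each library were alternatives. Figures used Python 3.11.15 and matplotlib 3.10.9.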

Additional observations from a re-analysis of the deposited data

Results flagged for a closer look

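The KO effect differed between EBd2 and ES cells for 38 members by a test of that difference (edgeR interaction term, 2 libraries per group), which is 38 of 104 tested members, beside 48% of all genes. With library totals 2 mitochondrial genes were called lower and 1 higher, and 6 nuclear genes lower and 32 higher, against 8 and 0, and 19 and 11, with TMM factors. Values are the log2 fold change of KO against fl/fl in EBd2 less that in ES cells. Among mitochondrially encoded genes they were mt-Nd1 -0.30, mt-Nd2 -0.28, mt-Nd4 -0.33, mt-Nd4l -0.43, mt-Nd5 -0.23, mt-Co1 -0.33, mt-Co3 -0.50, mt-Atp8 -0.35. Nuclear genes with a lower KO effect in EBd2 were Ndufs3 -0.23, Ndufs7 -0.35, Ndufv2 -0.31, Ndufa6 -0.37, Ndufa7 -0.70, Ndufa11 -0.26, Ndufb8 -0.26, Ndufc2 -0.30, Ndufs4 -0.44, Ndufaf3 -1.04, Ndufaf5 -0.43, Ndufaf6 -0.87, Sdhb -0.58, Sdhc -0.25, Cox7c -0.25, Atp5a1 -0.19, Atp5b -0.35, Atp5c1 -0.17. Those with a higher KO effect in EBd2 were Ndufa3 0.37, Ndufaf2 0.33, Sdha 0.12, Uqcr10 0.32, Uqcrc1 0.26, Cox4i1 0.24, Cox6a1 0.28, Cox6b1 0.42, Cox8a 0.55, Ndufa4 0.25, Atp5pb 0.17. With the counts of nuclear copies added, 11 mitochondrial genes were called, all with a smaller KO effect in EBd2.

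Signals also appeared in pseudogene symbols outside the 110 members, some above and some below their level in fl/fl. As log2 fold changes of KO against fl/fl, Cox7c-ps1 had 3.05, Gm48789 (a copy of Ndufab1) 1.18 and Ndufb1-ps 0.38 in EBd2. Called lower in KO EBd2 were Gm10175 at -0.75, Gm28661 at -0.63, Gm28437 at -2.13 and Gm4459 at -0.30. The value of Gm28437 rests on fl/fl EBd2 lot 1, since lot 12 lay below both KO EBd2 libraries. Cox7c-ps1 had few reads, with 15 and 8 counts in KO EBd2 against 0 and 2 in fl/fl EBd2, a ratio of 8.64 with an exact 95% counting interval of 2.14 to 75.6. In ES cells Gm28438 had 4.75, Gm28439 0.90 and Gm48789 0.48, and Cox5b-ps was called lower in KO at -0.32. The value of Gm28438 rests on KO ES lot 1, with 54.7 CPM beside 1.81 CPM in lot 12. Ndufb1-ps carried 2662 counts and Cox5b-ps 2564 over all libraries, so both symbols held reads.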

How the results depend on the processing

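Counts of calls are given as mitochondrial higher and lower, then nuclear higher and lower. Scaling by library totals gave 37 higher and 12 lower nuclear genes in EBd2 for KO against fl/fl, 2 and 9 in ES cells, 30 and 27 for EBd2 against ES cells in KO with 0 mitochondrial genes lower, and for the interaction 1 and 2 mitochondrial and 32 and 6 nuclear. It turned the sign, for KO against fl/fl in EBd2, of Sdha (0.18), Sdhd (0.052), Cox6a1 (0.22), Cox7a2l (0.033) and Cox5a (0.091), and for EBd2 against ES cells in KO of Sdha (0.010) and Uqcrfs1 (0.025). DESeq2 gave 0 nuclear genes higher in ES cells, 0 mitochondrial lower between stages in KO, 9 nuclear higher between stages in fl/fl, and 4 mitochondrial and 12 nuclear lower in the interaction. The 1 nuclear gene higher in ES cells became 0 with RLE factors or thinning and 2 with no filter, the stricter filter, the 4 libraries alone, pseudogene counts or lot 1 as a block. Thinning left 12 nuclear genes lower in ES cells, and the stricter filter gave 17 nuclear higher in the interaction. With no filter 1 mitochondrial gene was lower in EBd2 and 2 between stages in KO, where the 4 libraries alone also gave 2. Without mt-Co1 the summed ratio between stages was 0.72 in KO and 0.93 in fl/fl. Pseudogene counts, an alternative chosen after seeing the data as were the ratios that leave out a library, gave mt-Co2 -0.018 between stages in KO and -0.36 in the interaction. The cause of these changes was not tested.

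The main fit did not pair libraries by lot, and groups compared share only lot 1. Deviations of lot 1 libraries from their group means correlated between -0.023 and 0.038. With 2 libraries per group each deviation depends as much on the other lot, so these values cannot show whether lot 1 libraries belong together. With lots as a replicate block, mitochondrial genes in EBd2 were 5 higher and 1 lower, nuclear genes lower in ES cells 9, mitochondrial lower between stages in KO 2, and the interaction had 1 mitochondrial higher and 6 higher and 12 lower nuclear, with mt-Nd3 at 0.24.

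Leaving out each library, mitochondrial genes higher and lower ranged over 5 to 10 and 0 to 3 in EBd2, 11 to 13 and 0 to 0 in ES cells, 7 to 9 and 0 to 2 between stages in KO, 10 to 12 and 0 to 0 in fl/fl, and 0 to 1 and 5 to 10 in the interaction. Nuclear genes ranged over 8 to 13 and 28 to 37, 0 to 2 and 8 to 23, 13 to 18 and 33 to 44, 5 to 14 and 25 to 33, and 5 to 12 and 11 to 19. The log2 ratio ranged over 0.24 to 0.45 in EBd2, 0.54 to 0.57 in ES cells, 0.42 to 0.50 in KO and 0.57 to 0.78 in fl/fl. Without fl/fl EBd2 lot 12, mt-Co1 was -0.12 and mt-Atp8 -0.18 in EBd2, and without fl/fl EBd2 lot 1 mt-Co1 was 0.16. Nuclear genes lower in ES cells were 13 without KO lot 1, 10 without KO lot 12, 11 without fl/fl lot 1 and 8 without fl/fl lot 2. Without fl/fl EBd2 lot 1, 5 nuclear genes were higher between stages in fl/fl. A lone library was assumed to vary like the other groups. Of 4661 values of single members, 4181 kept direction and call, 274 lost the call, 98 gained it, 12 turned a called sign and 96 an uncalled one.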
